A study of Homo sapiens with 6 samples.

Results

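The serpin genes were examined in OVCAR3, an established human ovarian cancer cell line, after knockdown of NUF2. All genes of the deposited count table whose symbol consists of SERPIN, a clade letter from A to I and a number were taken, which gave 34 of 19973 genes. Clade A had 10 of them, clade B 13, clade E 3, clades F and I 2 each, and clades C, D, G and H 1 each. RNA was sequenced in 3 libraries of cells that carried a control hairpin (shNC) and 3 libraries of cells that carried a hairpin against NUF2 (shNUF2, named NUF2i in the labels). The hairpins were given on a plasmid with a human U6 promoter and a puromycin resistance gene driven by the CMV promoter, and both groups were grown under puromycin to obtain stable lines. A single hairpin sequence was used per group, and the sources used here do not state whether the libraries of a group came from separate cultures, so the p-values measure the spread between these libraries, which may be technical. NUF2 encodes a subunit of the NDC80 complex, which links kinetochores to spindle microtubules during mitosis.

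Serpins are a superfamily of proteins with a common fold, and most of them inhibit serine or cysteine proteases. A protease that cuts the exposed reactive loop of an inhibitory serpin is trapped in a covalent complex when the loop inserts into the body of the serpin, so each molecule is used up in the reaction. Several members do not inhibit proteases and act as hormone carriers or chaperones. Clade A and several smaller clades hold secreted plasma proteins made mainly in liver, clade B holds intracellular serpins that are common in epithelia and blood cells, and clade E holds secreted inhibitors such as protease nexin 1. In tumour biology the family is best known for the control of plasmin formation and matrix turnover.

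The libraries held 14115009 to 16995452 counted reads with shNC and 13057534 to 15227460 with shNUF2, and 12874 genes were tested. NUF2 had 903, 1096 and 1092 reads under shNC and 281, 290 and 384 under shNUF2, a log2 fold change of -1.51 ± 0.077 (SE, adjusted p = 2.17e-15). Of the 14 markers of epithelial ovarian carcinoma, 10 had enough reads to be tested, with FOLR1, KRT7, KRT8 and MSLN at 3020 reads or more in every library. Other tested markers were low, with EPCAM at 44 to 91 reads per library and CDH1 at 9 to 33. CLDN3 had no read, WFDC2 had 1 read in all 6 libraries together, KRT19 had 1 to 8 reads per library and WT1 0 to 7. The identity of the line was not tested beyond these markers. The summed level of these markers was 3742 to 4034 FPKM (a count divided by gene length and library total) with shNC and 3101 to 3240 with shNUF2, of which FOLR1 alone made up 3499 and 2755 on average. Of the 10 tested markers KRT8 and CLDN4 were more than 2-fold higher, beside 9.35% of all tested genes, and at any size of change 5 were higher and 4 lower, beside 33.9% and 33.8%. Because RNA was taken from whole cultures, fewer cells of a type and less RNA per cell cannot be told apart.

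Serpin transcripts were more abundant with shNUF2. Of the 34 genes, 25 had at least 1 read and 16 had enough reads to be tested. A gene was called higher or lower if its log2 fold change was beyond 1, which is a 2-fold change, with a Benjamini-Hochberg adjusted p under 0.05 in edgeR's quasi-likelihood test over all 12874 genes. By this rule 10 serpin genes were higher with shNUF2 and 0 were lower, where 9.35% of all tested genes were higher and 4.14% lower. At any size of change 14 were higher and 1 was lower, where 33.9% of all tested genes were higher and 33.8% lower. DESeq2 also called 10 serpin genes higher and 0 lower. At an unadjusted p under 0.05 SERPINB6 alone was lower. The median log2 fold change was 1.67 over the 16 tested serpin genes, also with SERPINB2 at its lower bound, and -0.01 over all tested genes. The shNC and shNUF2 libraries did not overlap for 14 of the 16 genes, and they did not overlap for 70.6% of all tested genes.

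Part of these counts depends on which genes had reads. The reads of the shNC libraries alone would have kept 10 of the 16 genes, of which 4 were more than 2-fold higher, 8 were higher at any size, 1 was lower and 1 did not pass, with a median log2 fold change of 0.55. Of the 12200 genes that these libraries alone would have kept, 6.55% were more than 2-fold higher, and their median was -0.04. The other 6 genes, SERPINB2, SERPINB3, SERPINB4, SERPINB7, SERPINE3 and SERPING1, were tested only because of their reads with shNUF2, the group in which they are high, so their calls are not support for a change of the family.

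**Figure D1:**
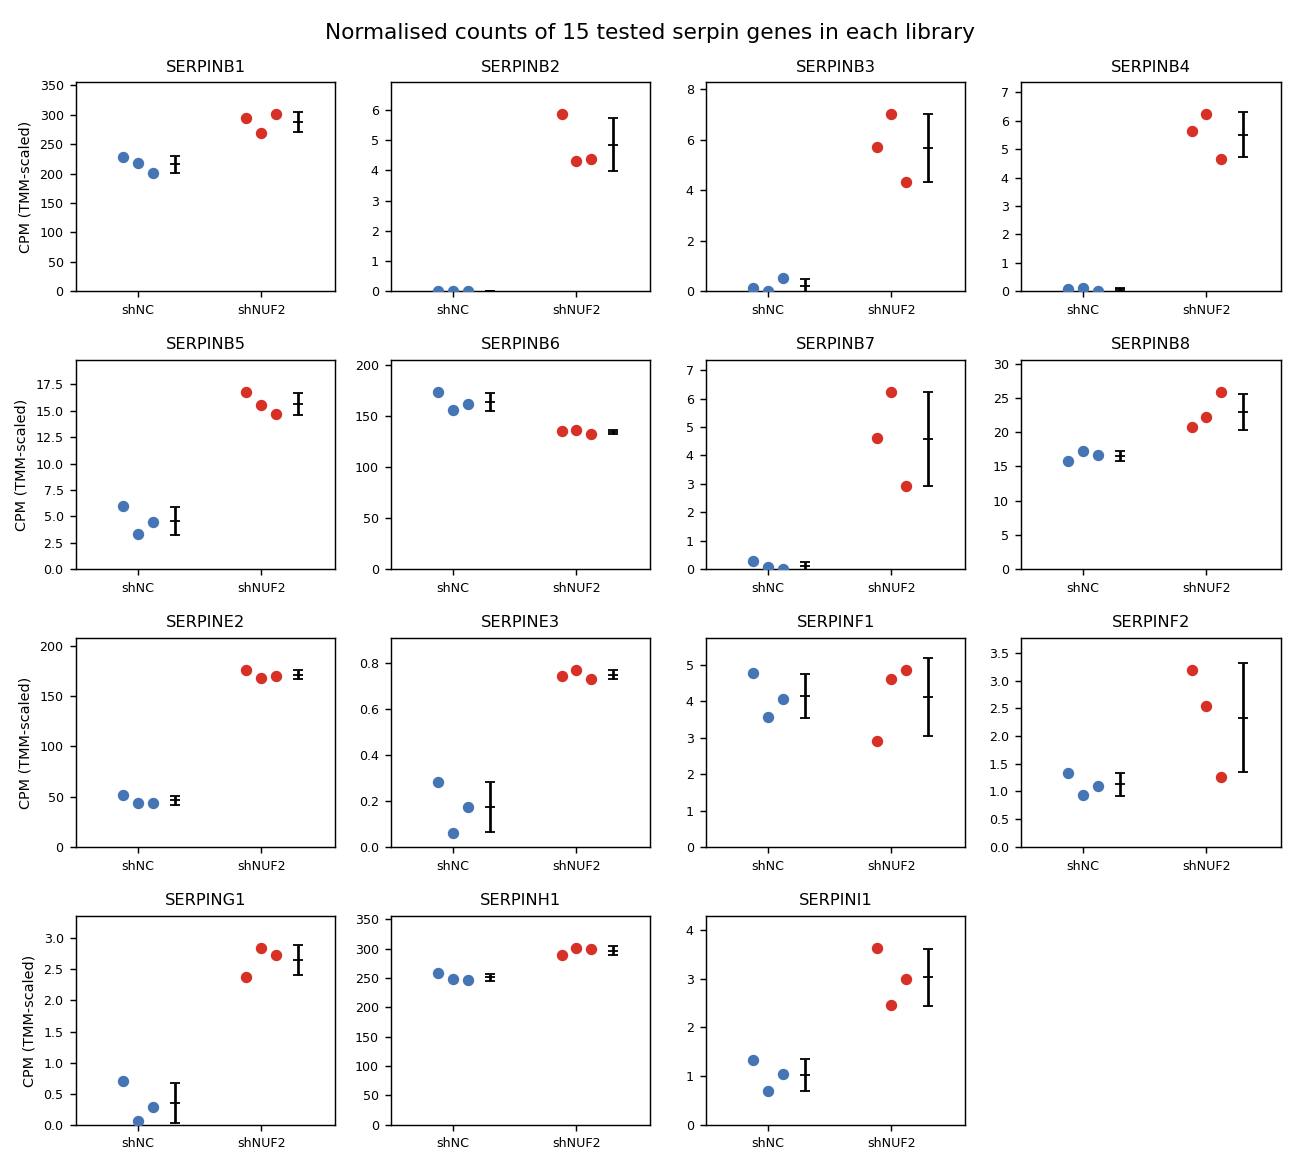
Normalised counts (CPM, the count scaled to a common library size by TMM) of 15 of the tested serpin genes, 1 panel per gene, with blue points for the 3 shNC libraries, red points for the 3 shNUF2 libraries and a bar for the mean ± SD. The groups overlap in the panels of SERPINF1 and SERPINF2, and SERPINB6 is the only gene whose 3 shNUF2 libraries all lie below the shNC libraries.

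Levels of the members described here were compared per length. With shNC SERPINB1 stood at 71.6 FPKM and SERPINH1 at 40.5, and the order continued with SERPINB6 at 12.6, SERPINE2 at 5.25 and SERPINB8 at 2.91, and each of these neighbours was separated in all libraries. With shNUF2 SERPINB1 stood at 93.2 FPKM and SERPINH1 at 46.6, and SERPINE2 at 18.9 FPKM and above SERPINB6 at 10.1. SERPINB5, SERPINB8, SERPINB3 and SERPINB4 came next at 4.13, 3.93, 3.28 and 2.76 FPKM, and each overlapped the next in this order.

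On chromosome 18 a run of clade B serpins holds 4 genes that had 0 to 9 reads per library with shNC and 44 to 91 with shNUF2. From SERPINB5 to SERPINB8, chr18:63476958-64019779 in GRCh38, the table lists 10 serpin genes and HMSD. Of the 10 serpins, 8 had a read, 6 were tested and 5 were more than 2-fold higher with shNUF2, beside 9.35% of all tested genes. Of these 5, 4 were tested only because of their reads with shNUF2. The 5 genes were SERPINB5, SERPINB4, SERPINB3, SERPINB7 and SERPINB2, whose products are known mainly from epithelia and, for SERPINB2, also from monocytes and macrophages.

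SERPINB2 (ENSG00000197632, chr18:63871692-63903888) encodes plasminogen activator inhibitor type 2, which inhibits urokinase. It had 0 reads in all 3 shNC libraries and 79, 56 and 66 reads with shNUF2. The groups were fully separated, and against a floor of 3 reads over the shNC group the level with shNUF2 was at least 76.5-fold higher (adjusted p = 1.9e-11). SERPINB10, which encodes the blood cell serpin bomapin and overlaps SERPINB2 on the same strand over 6715 bases, had 0 reads under shNC and 4, 2 and 1 under shNUF2, too few for a test.

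SERPINB3 (ENSG00000057149, chr18:63655197-63661893) and SERPINB4 (ENSG00000206073, chr18:63637259-63644256) encode the squamous cell carcinoma antigens, of which the first inhibits cysteine cathepsins such as cathepsin L and the other inhibits cathepsin G and mast cell chymase. SERPINB3 had 2, 0 and 9 reads under shNC and 77, 91 and 65 under shNUF2. SERPINB4 had 1, 2 and 0 reads under shNC and 76, 81 and 70 under shNUF2. All shNUF2 libraries were above all shNC libraries for both genes. The ratio of normalised reads was 24.2 for SERPINB3 (95% interval 13.3 to 49.1, adjusted p = 7.43e-10) and 86.4 for SERPINB4 (29.2 to 422, adjusted p = 6.37e-12), where these exact Poisson intervals and those below cover counting error only. The SERPINB3 log2 fold change was 4.56 ± 0.44 with all libraries and 6.23 without shNC replicate 3. For SERPINB4 it was 6.26 ± 0.47 with all libraries, 7.09 without shNC replicate 2 and 5.67 without shNC replicate 3.

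The coding sequences of these paralogs, both 1173 bases long in GENCODE release 29, are 95.2% identical with 56 differences, so reads could be assigned to the wrong copy. The 60 bases of coding positions 952 to 1011, in exon 8 of 8, hold the most differences, 10, and are shown because reads from here tell the copies apart. They lie on the minus strand at chr18:63655819-63655878 for SERPINB3 and chr18:63637881-63637940 for SERPINB4 in GRCh38, and capitals mark the differing bases.
SERPINB3: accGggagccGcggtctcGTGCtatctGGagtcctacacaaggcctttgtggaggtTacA
SERPINB4: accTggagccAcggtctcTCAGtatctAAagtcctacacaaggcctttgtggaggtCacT
Of all 75-base windows of the SERPINB3 transcript 10.5% occur exactly in SERPINB4, of 100-base windows 3.4%, and of 150-base windows 0%. With the reads of both genes added, the counts were 3, 2 and 9 with shNC and 153, 172 and 135 with shNUF2, a ratio of 37.5 (95% interval 22.1 to 69.2, adjusted p = 6.09e-14), so the increase of the pair did not depend on how reads were split between the copies. SERPINB3 lies within SERPINB11 on the opposite strand, and SERPINB11 had 2 reads in 1 shNUF2 library and 0 in the others.

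The similarity of the paralogs continues upstream. Of the 250 bases before the annotated start, 247 are identical, and they are printed because SERPINB3 and SERPINB4 were higher together. The windows, from the RefSeq table on GRCh38.p14, lie on the minus strand at chr18:63661894-63662143 for SERPINB3 and chr18:63644257-63644506 for SERPINB4, and capitals mark the 3 differing bases.
SERPINB3: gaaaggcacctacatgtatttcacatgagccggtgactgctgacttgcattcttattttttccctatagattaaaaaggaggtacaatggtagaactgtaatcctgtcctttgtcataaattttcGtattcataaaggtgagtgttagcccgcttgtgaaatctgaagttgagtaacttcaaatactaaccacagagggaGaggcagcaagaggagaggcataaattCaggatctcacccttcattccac
SERPINB4: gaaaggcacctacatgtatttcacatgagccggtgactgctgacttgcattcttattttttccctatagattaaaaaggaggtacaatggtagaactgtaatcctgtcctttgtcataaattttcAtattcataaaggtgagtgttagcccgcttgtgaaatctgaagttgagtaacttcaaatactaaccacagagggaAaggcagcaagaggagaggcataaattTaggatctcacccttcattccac

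SERPINB7 (ENSG00000166396, chr18:63752935-63805376) encodes megsin, which inhibits kallikreins of the skin. It had 4, 1 and 0 reads under shNC and 62, 81 and 44 under shNUF2, without overlap, a ratio of 42.7 (95% interval 17.98 to 133, adjusted p = 1.18e-09). Its log2 fold change was 5.32 ± 0.52 with all libraries, 6.88 without shNC replicate 1 and 4.70 without shNC replicate 3. SERPINB5 (ENSG00000206075, chr18:63476958-63505085) encodes maspin, a serpin without protease inhibition that is lost in many carcinomas of the breast. It had 85, 53 and 77 reads under shNC and 226, 202 and 221 under shNUF2. Its normalised count rose from 4.59 ± 1.33 to 15.7 ± 1.04 CPM (SD, n = 3), a log2 fold change of 1.78 ± 0.16 (adjusted p = 3.09e-10), and it was the only member of the 5 that had more than 9 reads in any shNC library.

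SERPINB8 (ENSG00000166401), which inhibits furin and lies at the other end of the run from SERPINB5, had 224, 275 and 288 reads under shNC and 280, 289 and 389 under shNUF2, a log2 fold change of 0.47 ± 0.10 (adjusted p = 2.68e-04). HMSD, which shares 11746 bases of the same strand with SERPINB8, had 7, 8 and 9 reads under shNC and 11, 21 and 11 under shNUF2, a log2 fold change of 1.03 ± 0.47 that did not pass the test (adjusted p = 0.0535). SERPINB12 and SERPINB13, which lie between SERPINB5 and SERPINB4, had 0 reads in all libraries.

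**Figure D2:**
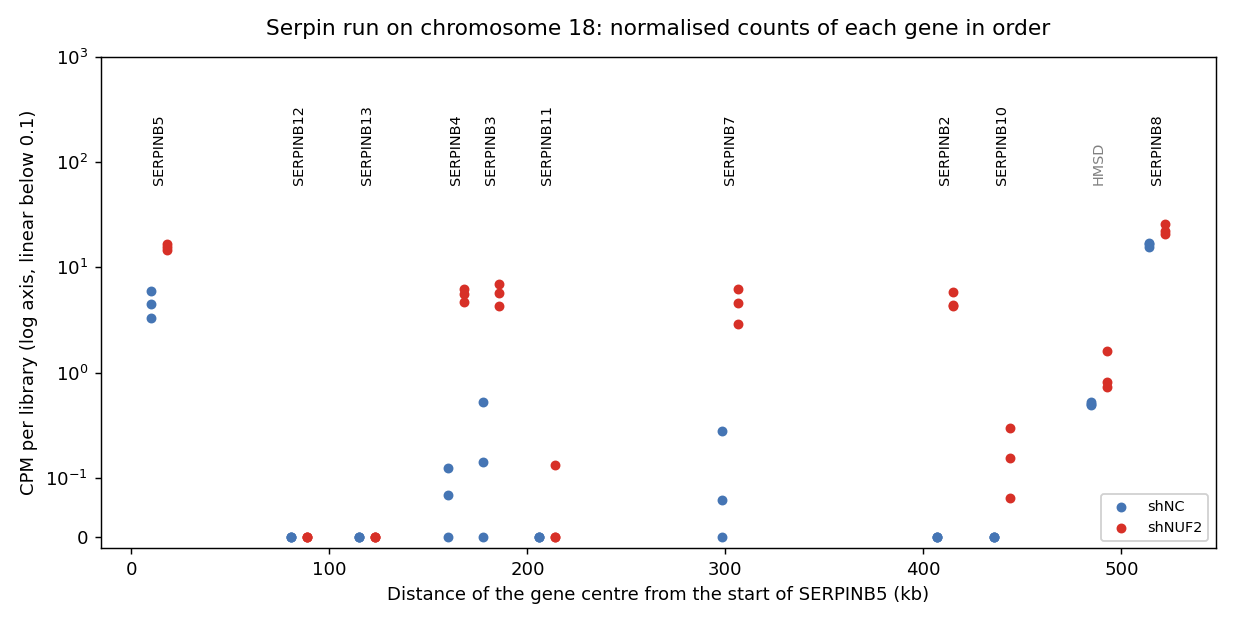
Normalised counts (CPM, log axis, linear below 0.1) of the 10 serpin genes and HMSD on chromosome 18, placed by the distance of the gene centre from the start of SERPINB5 in kilobases, with 1 point per library in blue for shNC and red for shNUF2. SERPINB2, SERPINB3, SERPINB4 and SERPINB7 lie at or below 0.6 CPM with shNC and above 2 with shNUF2, while SERPINB12 and SERPINB13 between them and SERPINB5 stay at 0.

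Promoter windows of 250 bases before and 50 after the start were present in the RefSeq table for 27 of the 34 members, with 41 windows in all. They were searched on both strands for the AP-1 motif TGANTCA, the cAMP response element TGACGTCA and the TATA box TATAAA. AP-1 letters stood in 9 of the 41 serpin windows, belonging to 8 genes, and in 7.71% of 35116 windows of all genes. TATA box letters stood in 11 serpin windows of 10 genes and in 11.5% of all windows, and the cAMP response element in 0 serpin windows and 1.85% of all. Of the 8 genes that were more than 2-fold higher and had a window, SERPINB2, SERPINB5, SERPINB7 and SERPINE3 held the AP-1 letters. So did SERPINB12 and SERPINB13, which had 0 reads, as well as SERPINB8 and SERPINI2. A match gives the letters only and does not show that a factor binds there.

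The 250 bases before the start are printed for 3 of the chromosome 18 genes that were higher, with AP-1 and TATA box letters in capitals. All lie on the plus strand of GRCh38.p14, SERPINB5 at chr18:63476708-63476957, SERPINB7 (the last of its 3 annotated starts) at chr18:63777531-63777780 and SERPINB2 at chr18:63887455-63887704.
SERPINB5: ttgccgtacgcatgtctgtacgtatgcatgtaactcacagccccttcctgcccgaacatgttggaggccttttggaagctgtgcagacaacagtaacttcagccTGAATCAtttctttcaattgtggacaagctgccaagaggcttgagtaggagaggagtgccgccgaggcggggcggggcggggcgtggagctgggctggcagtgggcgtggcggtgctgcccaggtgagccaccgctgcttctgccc
SERPINB7: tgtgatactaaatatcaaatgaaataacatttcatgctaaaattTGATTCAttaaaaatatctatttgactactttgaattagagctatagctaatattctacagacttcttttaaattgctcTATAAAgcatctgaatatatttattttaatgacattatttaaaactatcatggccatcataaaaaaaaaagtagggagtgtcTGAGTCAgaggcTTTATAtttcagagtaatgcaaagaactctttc
SERPINB2: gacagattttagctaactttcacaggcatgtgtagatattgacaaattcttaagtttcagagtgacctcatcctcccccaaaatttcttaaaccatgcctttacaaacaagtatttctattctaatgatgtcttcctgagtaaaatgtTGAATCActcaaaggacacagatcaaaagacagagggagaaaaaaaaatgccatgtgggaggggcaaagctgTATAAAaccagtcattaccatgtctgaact
In the SERPINB2 window the AP-1 letters begin 102 bases and the TATA box 30 bases before the start. In the SERPINB7 window the AP-1 letters begin 206 and 45 bases before the start, while the window of its first start held neither motif and that of the middle start held AP-1 letters only, and in the SERPINB5 window 146 bases before it.

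Of the clade B genes on chromosome 6, SERPINB1 rose and SERPINB6 fell by less than 2-fold, and both had at least 1767 reads in every library. SERPINB1 (ENSG00000021355, chr6:2832332-2841959), an inhibitor of neutrophil elastase and cathepsin G, had 3245, 3478 and 3451 reads under shNC and 3962, 3492 and 4525 under shNUF2. After scaling it rose from 216 ± 13.95 to 288 ± 16.9 CPM, a log2 fold change of 0.42 ± 0.05 (adjusted p = 4.47e-08), and the scaled libraries did not overlap. SERPINB6 (ENSG00000124570, chr6:2948159-2972165), which inhibits cathepsin G and thrombin, had 2466, 2492 and 2783 reads under shNC and 1825, 1767 and 1988 under shNUF2. It fell from 164 ± 8.92 to 135 ± 2.04 CPM, a log2 fold change of -0.28 ± 0.05 (adjusted p = 1e-05), and was the only tested member lower in all shNUF2 libraries. SERPINB9, the granzyme B inhibitor that lies between them, had 2, 0 and 0 reads under shNC and 3, 1 and 0 under shNUF2.

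SERPINE2 and SERPINE3, of clade E, were both more than 2-fold higher with shNUF2. SERPINE2 (ENSG00000135919, chr2:223975045-224039318) encodes protease nexin 1, an inhibitor of thrombin and urokinase. It had 733, 706 and 749 reads under shNC and 2374, 2185 and 2559 under shNUF2, and rose from 46.4 ± 4.46 to 171 ± 4.16 CPM. Its log2 fold change of 1.89 ± 0.06 (adjusted p = 3.26e-20) had the smallest adjusted p among the members. SERPINE3 had 4, 1 and 3 reads under shNC and 10, 10 and 11 under shNUF2, a ratio of 4.42 (95% interval 1.99 to 11.1, adjusted p = 0.00428). It overlaps INTS6, which had 1842 reads with shNC and 1879 with shNUF2, over 10659 bases on the opposite strand. The library kit keeps the strand, but the strand setting of the counting is not given in the sources used here, so SERPINE3 reads are uncertain.

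**Figure D3:**
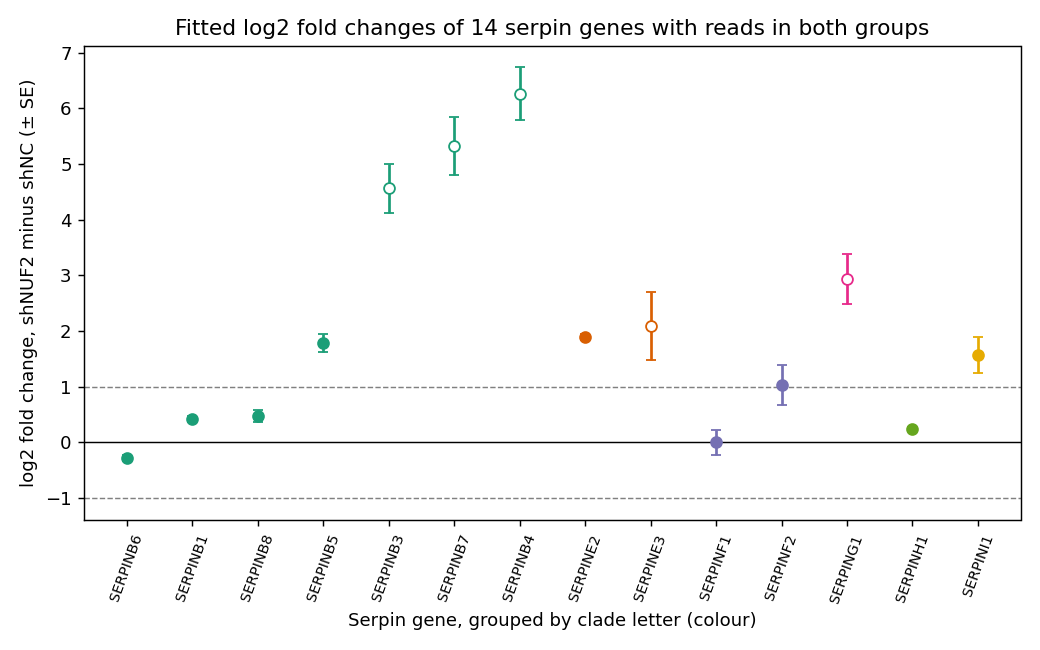
Fitted log2 fold changes (shNUF2 minus shNC) ± SE of 14 tested serpin genes with reads in both groups, coloured by clade, with dashed lines at the 2-fold limits. Open symbols mark genes that were tested only because of their reads with shNUF2, and SERPINB2 is left out because its shNC libraries had 0 reads. SERPINB4, SERPINB7 and SERPINB3 stand highest, and SERPINB6 is below 0.

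Among the other clades, the collagen chaperone was the most abundant. SERPINH1 (ENSG00000149257, chr11:75562056-75572783) encodes the chaperone of procollagen in the endoplasmic reticulum and does not inhibit proteases. It had 3675, 3968 and 4236 reads under shNC and 3891, 3916 and 4513 under shNUF2, and rose from 251 ± 6.57 to 297 ± 6.96 CPM, a log2 fold change of 0.24 ± 0.04 (adjusted p = 1.6e-05). SERPING1 (ENSG00000149131, chr11:57597387-57619171) encodes the C1 inhibitor of the complement and contact systems. It had 10, 1 and 5 reads under shNC and 32, 37 and 41 under shNUF2, without overlap, a ratio of 7.85 (95% interval 4.62 to 14.2, adjusted p = 2.11e-06). Its log2 fold change of 2.93 ± 0.45 became 3.81 without shNC replicate 1.

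SERPINI1 (ENSG00000163536, chr3:167735243-167825569) encodes neuroserpin, an inhibitor of tissue-type plasminogen activator in the nervous system. It had 19, 11 and 18 reads under shNC and 49, 32 and 45 under shNUF2, without overlap, a ratio of 3.00 (95% interval 2.13 to 4.27, adjusted p = 1.18e-04). SERPINF2 (ENSG00000167711, chr17:1742836-1755265), which encodes the plasmin inhibitor alpha-2-antiplasmin, had 19, 15 and 19 reads under shNC and 43, 33 and 19 under shNUF2. Its log2 fold change was 1.04 ± 0.36 (adjusted p = 0.0127), but 1 shNUF2 library lay within the range of the shNC libraries, and the adjusted p was 0.12 without shNUF2 replicate 1 and 0.0528 without shNC replicate 2. SERPINF1, the neighbouring gene for the non-inhibitory pigment epithelium-derived factor, had 68, 57 and 70 reads under shNC and 39, 60 and 73 under shNUF2. Its ratio was 1.01 with a 95% interval of 0.816 to 1.24 (adjusted p = 0.995), so a 2-fold change lies outside the counting interval.

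The plasma serpins of clades A, C and D had few or no reads, and none of these genes was tested. Over all 18 untested members there were 6 reads with shNC and 82 with shNUF2. Of these, 9 had 0 reads in all libraries, namely SERPINA3, SERPINA4, SERPINA6, SERPINA7, SERPINA9, SERPINA11, SERPINA12, SERPINB12 and SERPINB13, and the other 9 had more reads with shNUF2 than with shNC. SERPINA1, which encodes alpha-1-antitrypsin, the main plasma inhibitor of neutrophil elastase, had 0, 0 and 1 reads under shNC and 8, 24 and 13 under shNUF2, a ratio of 51.4 (95% interval 8.76 to 2074). In a fit without a filter on low counts its adjusted p was 8.84e-07. The heparin-dependent thrombin inhibitors had few reads, SERPINC1 (antithrombin) with 0, 0 and 1 against 1, 2 and 4, and SERPIND1 (heparin cofactor II) with 0, 1 and 0 against 4, 2 and 4. SERPIND1 lies on the strand opposite PI4KA, which had 2932 and 2466 reads in the groups. SERPINA10, SERPINA5, SERPINB11 and SERPINI2 had 1 to 4 reads in all libraries together, too few for a comparison at this depth.

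The genes of other cell types were read beside these values. Of 11 hepatocyte markers 0 were tested, and their summed level was 0.0163 to 0.225 FPKM with shNC and 0.369 to 1.01 with shNUF2. ALB, APOA1 and TTR had 0 reads in all libraries, whereas the fibrinogen genes FGA, FGB and FGG had 0 or 1 read per shNC library and 3 to 24 per shNUF2 library. Of 11 leukocyte markers 2 were tested. Their summed level was 0.949 to 1.59 FPKM with shNC and 2.39 to 3.12 with shNUF2, with PTPRC at 0, 1 and 0 reads against 6, 11 and 6 and MS4A1 at 0 in all libraries. Of 9 fibroblast markers 4 were tested, of which FAP, tested only because of its reads with shNUF2, and DCN were more than 2-fold higher, beside 9.35% of all tested genes, and COL1A1 fell by 0.39 on the log2 scale. Their summed level was 9.48 to 10.1 FPKM with shNC and 7.65 to 8.79 with shNUF2, with PDGFRA at 0. COL1A1 alone made up 9.19 and 6.84 FPKM of it on average, so the sum mainly follows this gene. The part of other cell types in the serpin values was not tested.

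Proteases controlled by serpins were next compared. Of 46 listed target proteases and activators 23 were tested, of which 8 were more than 2-fold higher and 0 lower, beside 9.35% and 4.14% of all tested genes. At any size 12 were higher and 3 lower, beside 33.9% and 33.8%. Their median log2 fold change was 0.40, and of the 21 genes that the shNC libraries alone would have kept 6 were more than 2-fold higher, beside 6.55% of all genes kept in this way. CTSL (cathepsin L, a target of the SERPINB3 product) had 1392, 1536 and 1743 reads under shNC and 3868, 3845 and 4151 under shNUF2, a log2 fold change of 1.54 ± 0.05 (adjusted p = 2.98e-20). CTSB, which encodes cathepsin B, rose by 1.16 ± 0.06 on the same scale (adjusted p = 3.33e-15). In the plasminogen system the urokinase receptor gene PLAUR rose by 1.23 ± 0.06 (adjusted p = 2.89e-16). The urokinase gene PLAU rose by 1.24 ± 0.13 (adjusted p = 3.9e-09), from 119, 135 and 217 reads to 298, 310 and 361, and the tissue-type activator gene PLAT by 1.78 ± 0.35 (adjusted p = 6.35e-05), from 9, 14 and 11 reads to 28, 34 and 41. PLAU and PLAT encode targets of the SERPINB2 and SERPINI1 products, and they were chosen after their values were seen. The membrane-anchored protease gene PRSS8, which encodes prostasin, rose by 1.78 ± 0.16 (adjusted p = 1.19e-10), and PRSS22 had 8, 6 and 3 reads under shNC and 74, 56 and 75 under shNUF2. PLAT and PRSS22 were tested only because of their reads with shNUF2. FURIN, the target of the SERPINB8 product, fell from 194 ± 7.95 to 160 ± 2.15 CPM. The SERPINB4 target gene CTSG had 1 read in all libraries together, and the SERPINB7 target genes KLK5 and KLK7 had 0 and 1.

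Receptors that clear serpin-protease complexes, relatives of these receptors such as LRP5, and other binding proteins or cofactors of serpins were also listed. Of 17 genes 15 were tested, of which 3 were more than 2-fold higher and 2 lower, and at any size 7 were higher and 7 lower, with a median of -0.03. The shares over all tested genes were the 9.35% and 4.14%, and the 33.9% and 33.8%, given above. The syndecan gene SDC4 rose by 1.49 ± 0.05 (adjusted p = 2.81e-19). THBD, which encodes the thrombin-binding thrombomodulin, had 174, 160 and 156 reads under shNC and 430, 287 and 494 under shNUF2. LRP5 had a log2 fold change of -1.0 ± 0.05 (adjusted p = 8.09e-16), which lies at the 2-fold limit, and DESeq2 counted 1 lower gene in this list. VTN, which encodes vitronectin, a plasma and matrix protein that binds serpins, had 320, 444 and 554 reads under shNC and 123, 157 and 162 under shNUF2, a log2 fold change of -1.37 ± 0.13 (adjusted p = 3.53e-10).

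Protease inhibitors outside the serpin family were counted in the same way. Of 33 listed genes 32 were in the table and 18 were tested, of which 4 were more than 2-fold higher and 2 lower, beside 9.35% and 4.14% of all tested genes, and at any size 9 were higher and 3 lower, beside 33.9% and 33.8%, with a median of 0.23. Of the 17 genes that the shNC libraries alone would have kept 3 were more than 2-fold higher, beside 6.55% of all genes kept in this way. SPINK5, an inhibitor of skin kallikreins, had 2994, 3679 and 3790 reads under shNC and 292, 342 and 396 under shNUF2, a log2 fold change of -3.15 ± 0.06 (adjusted p = 7.19e-24). PI3, which encodes the elastase inhibitor elafin, had 173, 154 and 165 reads under shNC and 901, 810 and 837 under shNUF2, a log2 fold change of 2.56 ± 0.10 (adjusted p = 3.51e-18). The metalloproteinase inhibitor gene TIMP3 rose by 1.94 ± 0.08 (adjusted p = 3.47e-17) and the trypsin inhibitor gene SPINK1 by 2.74 ± 0.25 (adjusted p = 3.59e-10), while TIMP4 fell by 1.11 ± 0.21 (adjusted p = 3.87e-05).

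Because several of the clade B serpins that were higher are known from squamous epithelia, other squamous differentiation genes were counted. Of 35 listed genes 34 were in the table and 14 were tested, of which 10 were more than 2-fold higher and 0 lower, beside 9.35% and 4.14% of all tested genes, with a median of 1.80, also with RHCG and LCE3D at their lower bounds. At any size 11 were higher and 0 lower, beside 33.9% and 33.8%. The shNC libraries alone would have kept 9 of the 14, of which 5 were more than 2-fold higher, beside 6.55% of all genes kept in this way, with a median of 1.63, and the other 5 were tested only because of their reads with shNUF2. The keratin gene KRT17 had 12528, 12237 and 13433 reads under shNC and 54425, 49501 and 55029 under shNUF2, a log2 fold change of 2.24 ± 0.05 (adjusted p = 4.14e-23). KRT16 rose by 1.81 ± 0.14 (adjusted p = 1.81e-11) and KRT15 by 1.78 ± 0.10 (adjusted p = 1.44e-14). RHCG and LCE3D had 0 reads with shNC and 57 each over the shNUF2 libraries, at least 21.7-fold higher. Among markers of terminal differentiation KRT10 had 259 to 726 reads per library, TGM1 37 to 54 and CNFN 22 to 49. These 3 did not pass the test. IVL and SPRR2A had 0 reads with shNC, and with shNUF2 IVL had 0, 0 and 5 and SPRR2A 4, 0 and 1. Of the listed genes 6 had 0 reads in all libraries, among them KRT1, KRT6B and KRT6C. KRT5 had 1 to 5 reads per library and KRT6A 0 to 6. PI3 is in this list and in that of the other inhibitors.

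**Figure D4:**
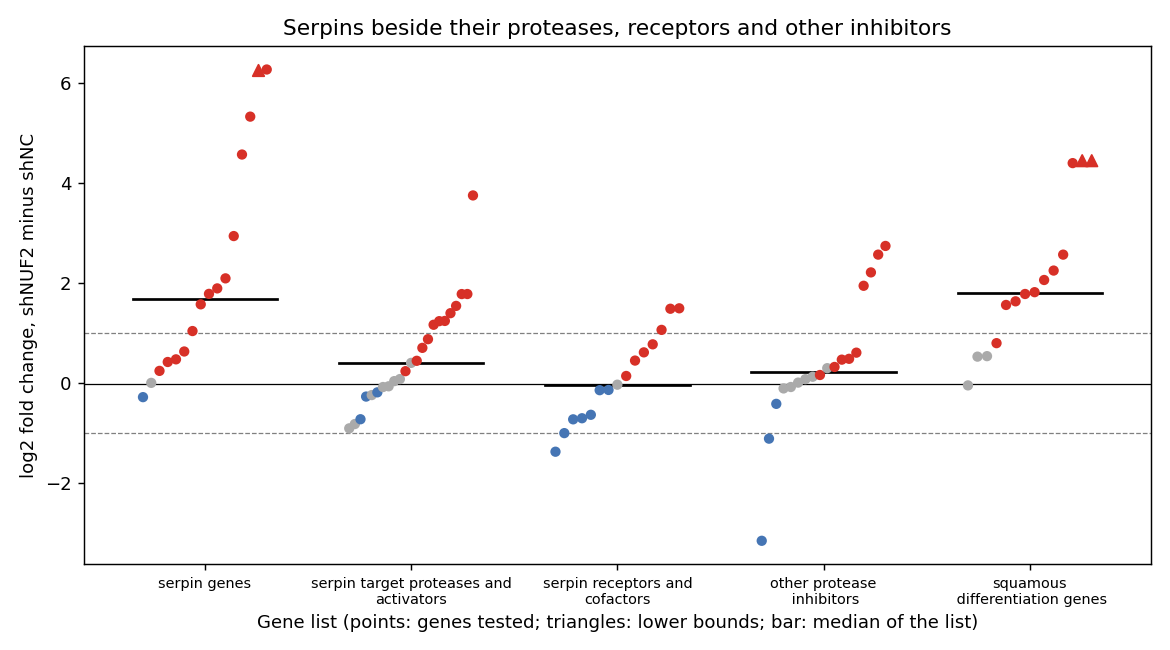
Log2 fold changes (shNUF2 minus shNC) of the tested genes of the serpin family and 4 gene lists, with 1 point per gene in red where higher and blue where lower at an adjusted p under 0.05 and grey where not passed, triangles at the lower bound of genes with 0 reads in all shNC libraries, bars at the medians, a thin line at the median of all genes and dashed lines at the 2-fold limits. The medians are 1.67 for serpins (0.55 over those that the shNC libraries alone would have kept), 0.40 for target proteases, -0.03 for receptors and cofactors, 0.23 for other inhibitors and 1.80 for squamous differentiation genes (1.63 over those kept by shNC alone).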

How the data were processed

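RNA of OVCAR3 cells was sequenced in 3 shNC and 3 shNUF2 libraries (stranded mRNA kit, Illumina NovaSeq). The authors deposited unnormalised read counts per gene with gene lengths and positions, and FPKM values, which equal count over length and library total within 2.71e-07. The submitters' processing notes name cutadapt, HISAT, HTSeq and GRCh38.p13, and their versions are not given in the sources used here. The authors' fold changes and p-values in the same table were not used. Groups were taken from the labels.

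Counts were filtered by filterByExpr (minimum count 10), scaled by TMM and tested by the quasi-likelihood test of edgeR 4.0.16 in R 4.3.3, with Benjamini-Hochberg adjustment over all 12874 genes and no covariate. FPKM were used for levels between genes. Totals of 13057534 to 16995452 reads set the precision. Within groups the correlation of log2 CPM was at least 0.995, and no libraries agreed within sampling noise (chi-square per degree of freedom at least 2.64). Groups of 3 cannot go below p = 0.1 in an exact permutation test. Ratios of summed reads have exact conditional Poisson intervals at 95%. On simulated counts with 200 changed genes, edgeR recovered 200 of 200 with 1 false call among 12842 genes, DESeq2 200 and limma 183. These changed genes were drawn only from genes well above the filter, with the same change beyond 2-fold and the same spread. The simulation therefore does not cover genes near 0 reads with shNC or changes near the 2-fold limit. Alternatives were other scalings and filters, DESeq2 1.42.0, limma 3.58.1 on log2 FPKM, the replicate number as a block, and each library left out. Genes were named if called or, past the adjusted p, with a mean of at least 10 FPKM, up to 5 called genes of a list by smallest p, and all other members by reads. Genes outside this rule are named beside their values. Some genes of the family and lists are counted but not reported here by name. The members, lists and tests were chosen with earlier results of these data known. Motifs and sequences were read with Python 3.11.15.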

Additional observations from a re-analysis of the deposited data

How the results depend on the processing

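The serpin count of 10 higher and 0 lower genes was 9 to 11 and 0 when each library was left out. It fell to 2 when at least 1 CPM was required in every library, a filter that removes genes near 0 with shNC, and to 6 by limma on log2(FPKM + 1), a scale that understates the change of low genes. With the 1 CPM filter 6 serpin genes were higher at any size, and over all genes 756 were more than 2-fold higher. By limma on log2(FPKM + 1) 430 of all genes were higher and 206 lower. With the 1 CPM filter the receptors had 1 lower, the other inhibitors 2 higher and the squamous genes 5 higher, and by limma on log2(FPKM + 1) the receptors had 1 lower, the other inhibitors 1 lower and the squamous genes 6 higher. The receptors also had 1 lower gene with DESeq2 size factors in edgeR and with DESeq2. The cause of the change among receptors was not tested. With each library left out, lower genes were 0 to 1 among target proteases, 1 to 2 among receptors and 1 to 2 among other inhibitors. Of 247 values of single genes under the alternatives, 235 kept their direction and their side of an adjusted p of 0.05, and 2, both of SERPINF2, no longer passed it. With the 2-fold limit included, SERPINF2 kept its call in 8 of 15 alternatives, and SERPINE3, SERPING1 and SERPINI1 lost theirs in 1 each, limma on log2(FPKM + 1), at 0.27, 0.38 and 0.69. The other 10 changed sign and were all of SERPINF1, with log2 fold changes of -0.0046 with upper-quartile scaling, -0.034 with library totals, -0.024 without a filter, -0.0077 with the replicate block, -0.032 and -0.063 by limma with pseudocounts of 1 and 0.1, and below 0 in 4 of the fits with a library left out, which gave -0.14 to 0.20 in all.

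With the replicate number as a block 9 serpin genes were higher and 0 lower, SERPINF1 was at the -0.0077 given above and SERPINF2 at 0.99, and over all genes 1197 were higher and 532 lower. The deviations of libraries of the same number correlated at 0.040, 0.022 and -0.051, and 2 of 6 libraries correlated best with their own number. No pairing by number was seen, but these values cannot show whether such libraries were handled together. Summing SERPINB3 and SERPINB4 was added after the data were seen. Members below the filter on low counts were not tested in the analysis reported, and fold changes against shNC groups near 0 depend on single reads.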
